A study of Mus musculus with 12 samples.

Results

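Rosiglitazone, a full agonist of the nuclear receptor PPARγ from the thiazolidinedione class, was compared with no ligand in mouse embryonic fibroblasts that make wild-type PPARγ. The comparison used 6 of the 12 arrays of the study, 3 of cells exposed to 1 µM rosiglitazone for 24 h and 3 of untreated cells, chosen by their sample titles. The fibroblasts on these arrays lacked endogenous PPARγ through a knockout, carried an introduced wild-type copy instead, and had all been differentiated for 6 days before RNA was taken. The other arrays were 3 of the same wild-type cells given 1 µM MRL24, a PPARγ ligand known as a partial agonist, for 24 h, and 3 of knockout cells with the S273A form of the receptor. The labels give neither the vector nor the number of lines made, and do not say if vehicle was added to untreated cells or if replicates were separate cultures. What the p-values measure is thus only array-to-array spread, possibly technical. With 3 arrays a side, no exact test can go below 0.1.

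PPARγ binds DNA as a heterodimer with a retinoid X receptor and, when an agonist sits in its pocket, exchanges corepressors for coactivators at genes of fatty acid uptake, storage and oxidation. It is required for fat cell differentiation, and thiazolidinediones are known for raising its lipid-handling targets in adipocytes and for dampening inflammatory gene expression. Its consensus element is a direct repeat of AGGTCA with 1 base between the copies.

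Values are deposited hybridization intensities, and changes are differences of log2(intensity + 16), on which the folds of dim genes are understated. Array medians lay between 296.9 and 315.0, and 3 arrays a group limit the precision. Untreated replicate 2 stood apart, with a score of -24.96 on the first principal component (26.2% of the variance) against -7.03 to 11.74 on the other arrays and a residual SD of 0.148 against 0.095 to 0.124. A gene was called when limma's test gave a Benjamini-Hochberg adjusted p under 0.05 over 9154 genes. Of these, 721 were called (7.88%), 339 higher (3.7%) and 382 lower (4.17%) with rosiglitazone, with a median absolute log2 change of 0.31. Without untreated replicate 2 the fit called 543 genes, 470 of them among the 721, and without rosiglitazone replicate 2 it called 383. With only those 6 arrays in the fit it called 355. The groups did not overlap for 2330 genes (25.5%), 1089 higher (11.9%) and 1241 lower (13.6%).

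Among called genes the rises reached farther than the falls. Of the called genes 9 lay past 2-fold, all of them higher, and past 1.5-fold 43 rose and 10 fell. The plot of change against level shows this asymmetry.

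**Figure D1:**
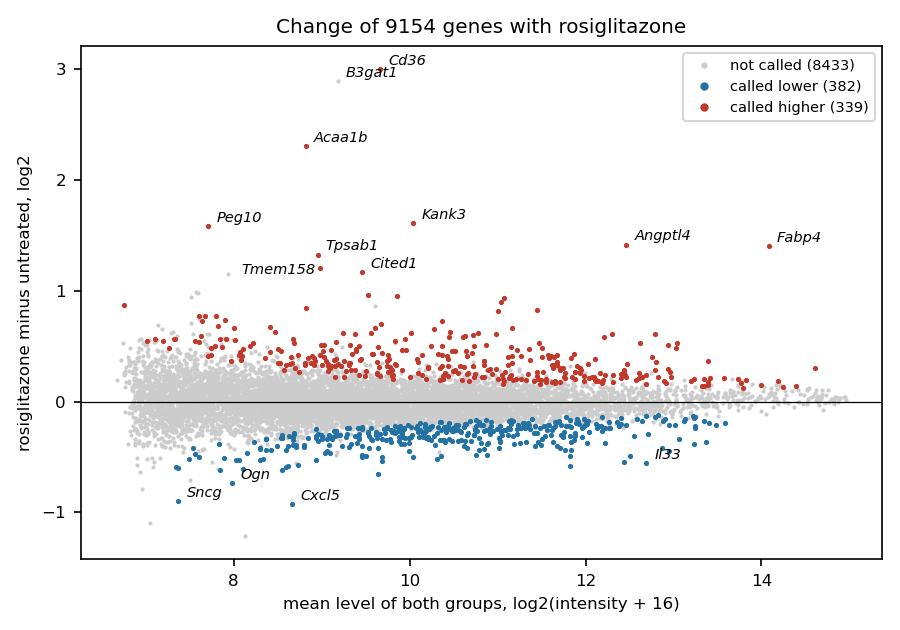
Each point is 1 of 9154 genes, with the mean level of the untreated and rosiglitazone arrays on the x axis as log2(intensity + 16) and the log2 difference of rosiglitazone from untreated on the y axis. Red and blue points are the 339 genes called higher and the 382 called lower; the largest rise is that of Cd36 at 3.0 and the largest called fall that of Cxcl5 at -0.92, while B3gat1, at 2.89, was not called.

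Cd36, a fatty acid transporter of the plasma membrane, had the largest rise. It read 176.7, 150.3 and 163.8 on the untreated arrays and 1442.0, 1447.9 and 1375.8 with rosiglitazone. The groups lay far apart, with a log2 change of 3.0 (SE 0.08, adjusted p = 9.45e-13), or 8.02-fold. Its 2 other probe sets changed by 3.09 and 0.85. Acaa1b, a peroxisomal 3-ketoacyl-CoA thiolase, read 117.6, 144.3 and 146.9 without ligand and 755.8, 716.9 and 734.8 with rosiglitazone. This rise of 2.31 (SE 0.13, adjusted p = 1.41e-08) was not shared by the near-identical Acaa1a, which changed by -0.12 (adjusted p = 0.284). How far the probes of this pair cross-hybridize was not analysed here.

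The promoter of Cd36 is shown because that gene led the response. The window holds 250 bases before the start and 50 from it on, read from RefSeq (GRCm38.p6, chr5:17835847-17836146, minus strand). A single AGGTCA element lies on the opposite strand of the window and is thus printed as TGACCT, in capitals. The first printed capital lies 228 bases before the start.
Cd36: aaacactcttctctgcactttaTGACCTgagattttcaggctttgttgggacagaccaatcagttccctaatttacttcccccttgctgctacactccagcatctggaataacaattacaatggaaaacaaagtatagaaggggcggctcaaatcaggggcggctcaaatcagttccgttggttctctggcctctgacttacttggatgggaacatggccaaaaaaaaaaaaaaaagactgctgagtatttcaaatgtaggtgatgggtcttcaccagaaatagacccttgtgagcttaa
AGGTCA occurs on either strand in 5340 of 32851 such promoter windows (16.3%), and this motif was added after the windows had been read. The full repeat, AGGTCA and AGGTCA with any base between, searched on both strands, was in 13 windows (0.04%). A looser repeat that includes it, AGGNCA and AGGNCA with any base between, was in 125 (0.381%). Of the 32 genes named for the largest changes here or between ligands, 24 had a window, and none of their 37 windows held either repeat. Among 374 windows of genes called higher, 1 held the looser repeat, that of Clock (0.267%), and none of 389 windows of genes called lower did, where 18 of 9573 windows of all tested genes did (0.188%). A match is a description of these letters only, and elements farther from a start were not examined.

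Among lipid carriers, Fabp4, the fatty acid binding protein of adipocytes and macrophages, read 9320.2, 10368.1 and 8837.7 without ligand and 25236.6, 25307.5 and 24914.7 with it. All 3 treated arrays stood well above the untreated ones, near the brightest signals on the arrays (31882 to 33624), where a change may be understated. The log2 change was 1.41 (SE 0.05, adjusted p = 1.21e-11), and 3 further probe sets of Fabp4 changed by 0.76 to 1.77. Angptl4, a secreted inhibitor of lipoprotein lipase, read 3062.1, 3188.4 and 2932.9 against 8146.2, 8547.9 and 7907.1, a rise of 1.42 (SE 0.05, adjusted p = 5.92e-12). Lpl, the lipase itself, read 1907.8, 2180.1 and 1893.4 against 3721.0, 3401.6 and 3512.3. The lipase rose by less than its inhibitor, 0.83 (SE 0.06, adjusted p = 2.01e-07). Fabp5 rose by 0.39 (adjusted p = 0.00427). In the list of fatty acid uptake, activation and carriers 5 of 17 tested genes rose (29.41%, against 3.7% of all genes) and none fell. The median log2 change was 0.12 where that of all tested genes was -0.001. The list's transport and activation genes Slc27a1, Slc27a4 and Acsl5 differed by 0.09, 0.17 and 0.05 and were not called.

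Large rises also lay outside the lipid lists. Kank3, an ankyrin repeat protein, read 524.3, 562.7 and 431.6 against 1526.3, 1631.4 and 1560.5 (log2 change 1.61, SE 0.09, adjusted p = 6.41e-09), and a second probe set changed by 1.74. Peg10, an imprinted gene derived from a retrotransposon, read 80.4, 94.0 and 91.2 against 304.4, 275.6 and 312.6 (1.58, SE 0.14, adjusted p = 2.36e-06). In both genes every treated array was more than 2-fold above every untreated one. Cited1, a transcriptional coactivator also used as a marker of beige adipocytes, rose from 380.3, 530.8 and 357.6 to 882.3, 949.3 and 1039.3 (1.17, adjusted p = 7.96e-06). Tpsab1, a tryptase of mast cells, rose from 233.6, 308.0 and 260.8 to 653.4, 691.6 and 730.8 (1.33, adjusted p = 1.68e-07). The 2 other mast cell markers that could be tested, Tpsb2 and Cpa3, differed by 0.21 and -0.19 and were not called. Tmem158, a transmembrane protein, rose by 1.21, the kinase Cdk18 by 0.97, Parm1 by 0.95, Sprr1a, a precursor of the epithelial cornified envelope, by 0.90 and the carbonyl reductase Cbr3 by 0.85. The kinase Ttbk2 rose by 0.87, but was not called without rosiglitazone replicate 2 (adjusted p = 0.0633).

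**Figure D2:**
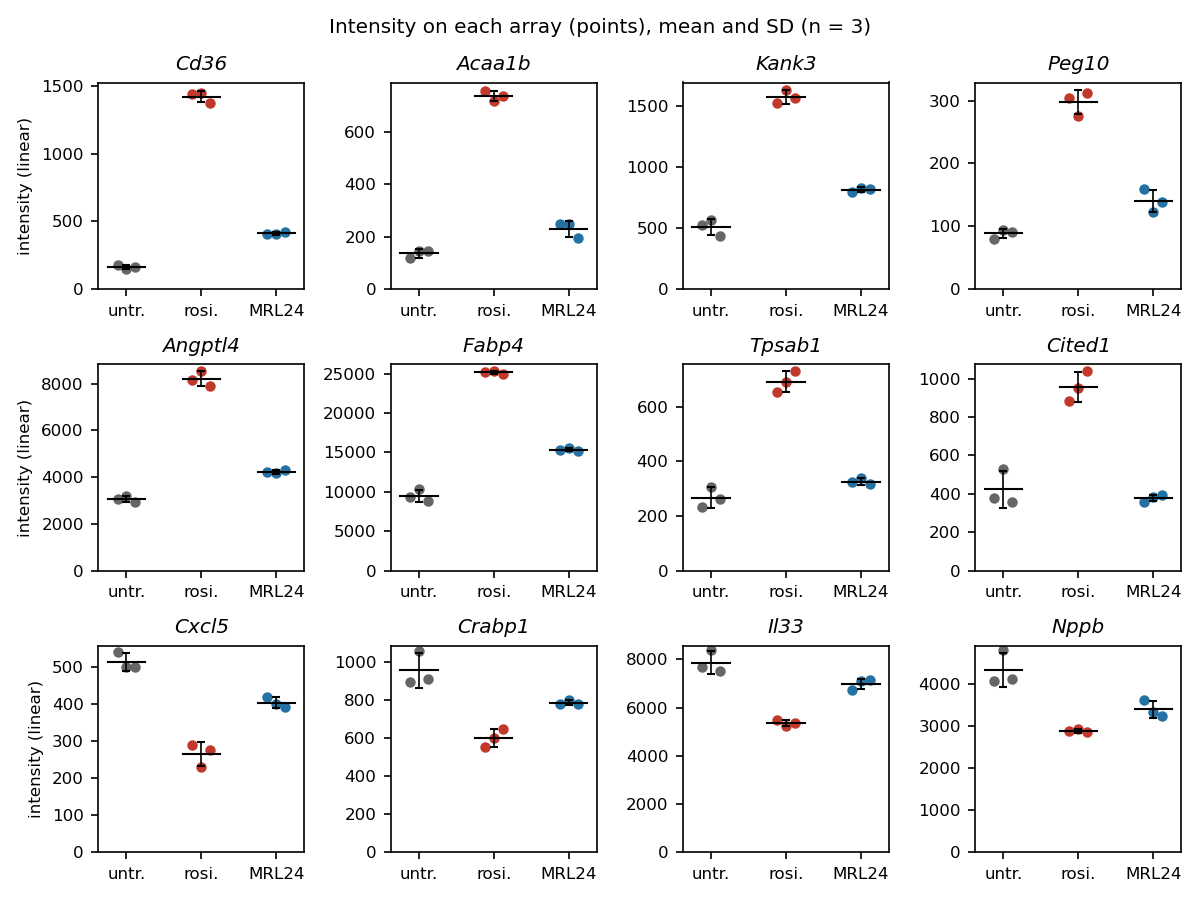
Intensity on a linear scale (y axis, from 0) of 12 genes on the 3 untreated, 3 rosiglitazone and 3 MRL24 arrays. Points are arrays, and bars give the mean and SD of 3. In the upper 8 genes the rosiglitazone points lie above all untreated points and in the lower 4 below them. The rule for naming these genes required that. MRL24 points of Cited1 lie among the untreated ones.

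Lipid droplet and lipolysis genes rose together in part, 5 of 13 tested members higher (38.46%, against 3.7% of all genes) and none lower. The median was 0.21. Plin2, a coat protein of lipid droplets, read 5574.6, 5577.7 and 5599.2 against 8368.0, 8890.6 and 8393.4. The untreated arrays stood close together and lay far below the treated ones (0.61, SE 0.04, adjusted p = 1.62e-07). The lysosomal acid lipase Lipa rose by 0.41 (adjusted p = 0.00017), the hormone-sensitive lipase Lipe by 0.41 (adjusted p = 0.00976), the triglyceride lipase Pnpla2 by 0.31 (adjusted p = 0.00733) and Hilpda, an inhibitor of that lipase, by 0.17 (adjusted p = 0.00326). Pnpla2 was not called when its probe sets were averaged, since the second one, at a mean intensity of 12.3, changed by -0.08.

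Breakdown of fatty acids in mitochondria was the next list with calls in 1 direction. Of 26 tested genes 6 were higher (23.08%, against 3.7% of all genes) and none lower. The median was 0.13, with 21 of 26 above 0, where 4544 of all 9154 genes were. Hadhb, the beta subunit of the trifunctional protein, read 1399.5, 1404.6 and 1402.0 against 1859.7, 1949.3 and 1922.2 (0.44, SE 0.06, adjusted p = 8.66e-05). Hadha, its alpha subunit, read 1466.6, 1466.6 and 1539.7 against 1830.3, 1930.1 and 1828.1 (0.32, SE 0.05, adjusted p = 0.000753). Both subunits of this complex therefore rose without overlap between the groups. Acaa2, the mitochondrial thiolase, rose by 0.41 (adjusted p = 0.000312) and Acadvl, the very long chain acyl-CoA dehydrogenase, by 0.38 (adjusted p = 0.000187). The electron transfer genes Etfa and Etfdh rose by 0.26 and 0.27; Etfdh was not called without rosiglitazone replicate 2 (adjusted p = 0.0633), nor Etfa without untreated replicate 2 or 3 or rosiglitazone replicate 1 or 3 (0.11, 0.0934, 0.112 and 0.114). Cpt1a, which gates entry of fatty acids into the mitochondrion, differed by 0.16 and was not called (adjusted p = 0.137).

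Hadha and Hadhb lie head to head, and their start regions are shown because both members rose. The RefSeq windows overlap by 228 bases; the window of Hadhb (GRCm38.p6, chr5:30155003-30155302, plus strand) is printed with the shared bases in capitals.
Hadhb: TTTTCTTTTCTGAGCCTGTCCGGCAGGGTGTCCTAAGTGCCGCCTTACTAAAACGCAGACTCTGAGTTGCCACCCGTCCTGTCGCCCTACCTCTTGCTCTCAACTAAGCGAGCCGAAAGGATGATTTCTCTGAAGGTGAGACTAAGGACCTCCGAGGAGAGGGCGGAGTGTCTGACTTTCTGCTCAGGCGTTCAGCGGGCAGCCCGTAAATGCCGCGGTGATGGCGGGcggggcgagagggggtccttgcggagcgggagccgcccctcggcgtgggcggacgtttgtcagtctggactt
The collagen IV genes Col4a1 and Col4a2, which both rose, and Tmem176a and Tmem176b, a pair of membrane proteins that both fell, are arranged likewise. The window of Col4a2 (chr8:11312555-11312854, plus strand) shares 78 bases with that of Col4a1, again in capitals.
Col4a2: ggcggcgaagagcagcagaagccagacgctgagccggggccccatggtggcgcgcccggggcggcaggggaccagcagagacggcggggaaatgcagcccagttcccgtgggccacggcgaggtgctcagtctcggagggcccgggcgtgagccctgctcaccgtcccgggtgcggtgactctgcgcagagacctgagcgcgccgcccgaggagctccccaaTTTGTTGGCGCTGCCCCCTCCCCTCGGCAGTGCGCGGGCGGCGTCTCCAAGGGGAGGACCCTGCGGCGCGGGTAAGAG
The window of Tmem176a (chr6:48841406-48841705, plus strand) shares 219 bases with that of Tmem176b.
Tmem176a: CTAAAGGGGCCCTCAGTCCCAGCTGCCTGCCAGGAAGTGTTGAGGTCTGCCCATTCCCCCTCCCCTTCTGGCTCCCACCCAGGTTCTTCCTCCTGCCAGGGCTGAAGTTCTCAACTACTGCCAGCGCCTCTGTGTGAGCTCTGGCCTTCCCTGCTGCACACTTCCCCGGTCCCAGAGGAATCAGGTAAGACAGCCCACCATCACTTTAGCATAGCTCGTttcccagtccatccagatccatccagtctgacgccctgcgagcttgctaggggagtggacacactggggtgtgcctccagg
These 3 pairs came from a search made after values had been seen, over all 302 pairs of tested genes whose windows on opposite strands overlap. In 2 pairs both genes were called higher, in 1 both lower, in none in opposite directions, in 15 a single gene was called and in 284 neither. Of all tested genes 7.88% were called. Whether the genes of a pair were called together more often than that share gives was not tested. Tmem176a read 1862.1, 1868.0 and 1750.3 against 1357.5, 1438.4 and 1291.7 (-0.42, adjusted p = 0.000294). Tmem176b read 4158.4, 4134.3 and 4023.6 against 3074.3, 3210.3 and 3249.0 (-0.37, adjusted p = 1.58e-05). All rosiglitazone arrays lay below all untreated arrays in both.

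Peroxisomal lipid enzymes had 5 of 26 tested genes higher (19.23%, against 3.7% of all genes) and none lower, with a median of 0.07. Beside Acaa1b these were Ech1, a dienoyl-CoA isomerase (0.48, adjusted p = 4.16e-05), the bifunctional enzyme Hsd17b4 (0.33, adjusted p = 0.0088), the sterol carrier and thiolase Scp2 (0.23, adjusted p = 0.00348) and the fatty acyl-CoA reductase Far1 (0.20, adjusted p = 0.0116). Far1 was not called without rosiglitazone replicate 2 (adjusted p = 0.057), and its other probe sets changed by -0.05 to 0.54. Of 11 genes of peroxisome assembly 3 rose (27.27%, against 3.7% of all genes), Pex5, Pex11a and Pex14, by 0.32, 0.37 and 0.28. Without rosiglitazone replicate 2 none of the 3 was called (adjusted p = 0.121, 0.129 and 0.0508). Catalase (Cat), the marker enzyme of peroxisomes, differed by 0.04 and was not called.

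In the tricarboxylic acid cycle and pyruvate list 4 of 27 tested genes rose (14.81%, against 3.7% of all genes) and none fell. The median was 0.03. Pdk4, the kinase that switches off pyruvate dehydrogenase, read 1394.5, 1638.5 and 1374.0 against 2888.8, 2688.0 and 2858.5 (0.93, SE 0.07, adjusted p = 2.01e-07). Pyruvate carboxylase (Pcx) read 556.3, 583.6 and 624.9 against 949.9, 941.6 and 923.2 (0.66, adjusted p = 7.33e-06). Idh3a, a subunit of isocitrate dehydrogenase, rose by 0.60 (adjusted p = 1.08e-05) and citrate synthase (Cs) by 0.22 (adjusted p = 0.00387). The rises in this list were thus held by 4 genes, since the other subunits of isocitrate dehydrogenase, Idh3b and Idh3g, differed by 0.01 and -0.05 and were not called.

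Among 84 genes of the respiratory chain and ATP synthase 4 rose and none fell, 4.76% against 3.7% of all genes, with a median of -0.02. Cycs, which encodes cytochrome c, read 5712.1, 7682.0 and 6056.1 against 8924.0, 9078.0 and 9595.5. The treated arrays were all above the untreated ones, of which replicate 2 was the highest (0.52, SE 0.08, adjusted p = 0.000406). Atp5b rose by 0.21 (adjusted p = 0.00587). The other calls, Atp5a1 and Cyc1, had adjusted p-values of 0.0386 and 0.0397 and neither was called without untreated replicate 2. Without that array the list as a whole had 6 genes higher and a median of 0.05, above 0 instead of below it. Genes of the mitochondrial ribosome gave 1 rise and 1 fall among 74 (1.35% each, against 3.7% and 4.17% of all genes). Those of branched-chain amino acid breakdown gave no call among 22.

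Synthesis of fatty acids and triglycerides had 5 of 28 tested genes higher (17.86%) and 1 lower (3.57%), against 3.7% and 4.17% of all genes. The median was 0.11. Acly, which makes cytosolic acetyl-CoA from citrate, read 4349.6, 3567.8 and 4054.3 against 6059.0, 6214.1 and 5995.9 (0.61, SE 0.06, adjusted p = 1.24e-05). Acss2, which makes it from acetate, rose by 0.51 (adjusted p = 0.000477), the triglyceride-forming enzyme Dgat2 by 0.47 (adjusted p = 0.000168) and the desaturase family gene Fads3 by 0.35 (adjusted p = 0.00212). Dgat1 rose by 0.22, with an adjusted p of 0.041 that passed 0.05 without any one of 10 of the 12 arrays, up to 0.135 without rosiglitazone replicate 2. Lpin2, a phosphatidate phosphatase, fell by 0.36 (adjusted p = 0.000825), though not when its probe sets were averaged. Fatty acid synthase (Fasn) and the desaturase Scd1 differed by 0.24 and 0.03 and were not called. Lpcat3, which remodels phospholipids and stood in the cholesterol efflux list, rose by 0.52 (adjusted p = 0.000213).

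**Figure D3:**
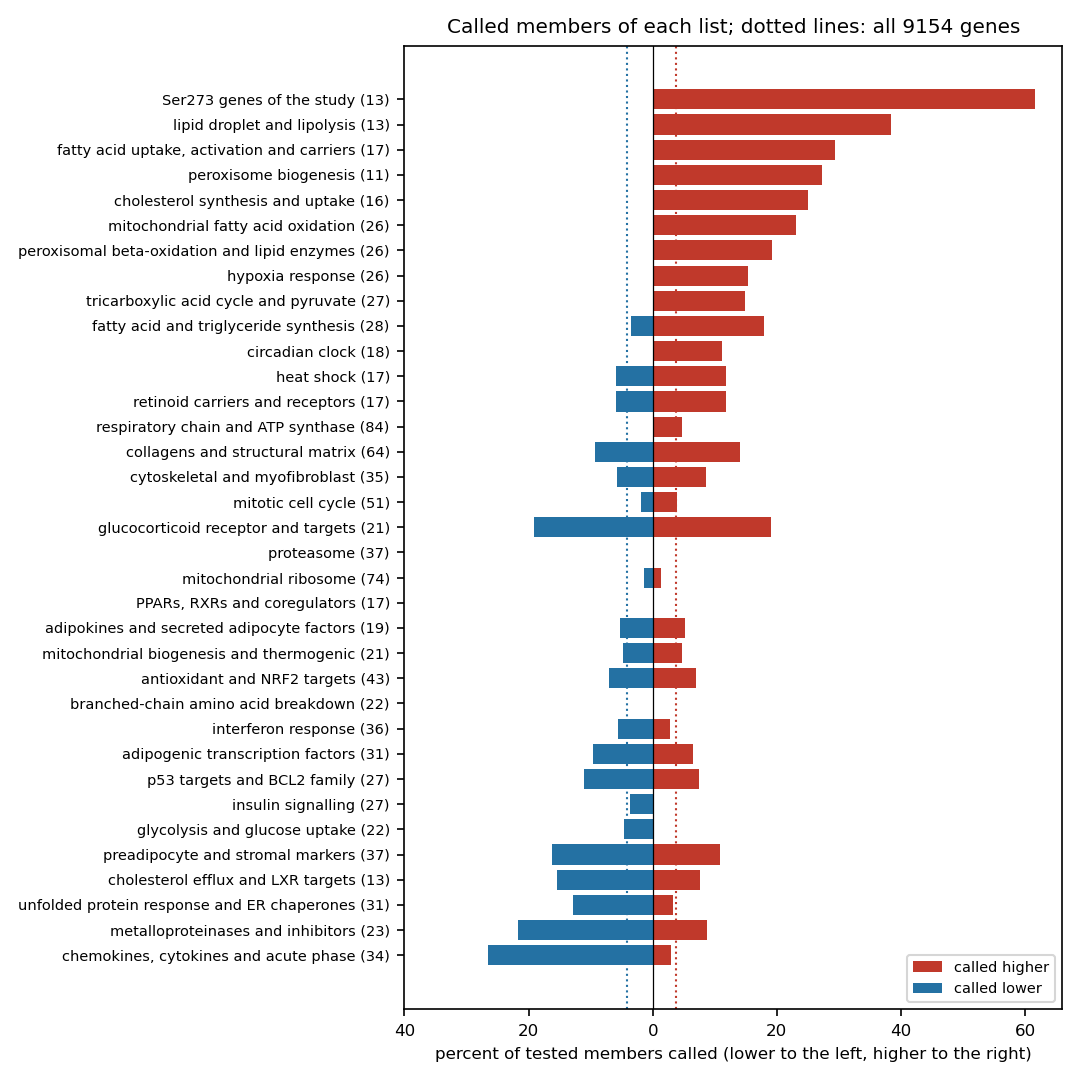
Percent of the tested members of 35 gene lists that were called higher (red, to the right of 0) or lower (blue, to the left), with the number of tested members in brackets. Dotted lines mark the shares over all 9154 genes, 3.7% and 4.17%; the lipid lists near the top have no blue bar apart from fatty acid and triglyceride synthesis, and chemokines, cytokines and acute phase genes have 26.5% lower.

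Neither the receptor nor its partners were called. Pparg read 940.6, 978.2 and 793.3 against 808.9, 772.8 and 918.9, with overlapping groups (-0.11, SE 0.10, adjusted p = 0.545). The position of its probes relative to the deletion was not examined. Among 17 tested genes of PPARs, retinoid X receptors and coregulators the changes of Rxra, Rxrb and the coactivator Ncoa1 were 0.03, 0.10 and 0.10. The largest was that of Ppard, the delta receptor, at 0.49 (adjusted p = 0.074). Of 31 adipogenic transcription factors 2 rose (6.45%) and 3 fell (9.68%), where 3.7% and 4.17% of all genes did. The 2 rises lost their calls without rosiglitazone replicate 2. Cebpd, an early adipogenic factor, fell from 4470.4, 3961.5 and 4225.0 to 3025.0, 3195.1 and 2781.6 (-0.49, SE 0.06, adjusted p = 7.08e-05). Ddit3, a stress-induced inhibitor of C/EBP factors, fell by 0.29 (adjusted p = 0.00272), while Cebpa, a factor of mature fat cells, differed by 0.17 and was not called (adjusted p = 0.394).

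The labels call the cells adipocytes, and the adipocyte markers bore this out in part. Of 10 markers on the array, Fabp4, Lpl, Cebpa, Retn, Gpd1, Lipe and Pnpla2 passed the intensity filter of 98.7, and 4 of these 7 rose. Adiponectin (Adipoq), Cidec and leptin (Lep) were below the filter. In a fit without the filter Adipoq read 37.3, 62.4 and 60.9 against 143.4, 140.2 and 134.0 (1.18, SE 0.20, adjusted p = 0.00507). Cidec, a lipid droplet protein, read 7.9, 14.6 and 32.6 against 84.7, 88.6 and 119.0 (1.77, SE 0.28, adjusted p = 0.00272). Both were thus low without ligand and brighter on every rosiglitazone array, whereas Lep read 1.8 to 19.7 and 6.6 to 24.4. The summed intensity of the 10 markers, carried mostly by Fabp4, was 13293 to 14893 without ligand and 31334 to 31905 with rosiglitazone. Whether more cells held these transcripts or each cell held more cannot be told apart in bulk RNA, here and for every list. Fibroblast markers were bright in both groups, with sums of 82771 to 93488 and 86494 to 91216 over 9 markers. Of these, Pdgfra and Thy1 fell, by 0.37 and 0.30 (adjusted p = 0.000785 and 0.00261), Pdgfra not when its probe sets were averaged, and Dlk1, the preadipocyte factor, differed by -0.03.

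Of 12 macrophage markers on the array 6 passed the filter and none was called, with sums of 3448 to 3979 and 3641 to 3991. Of 9 mast cell markers 3 passed, and the sums of 776 to 882 and 1227 to 1295 differed through Tpsab1. Their part in the rise of Tpsab1 was not tested. The defining markers Kit and Fcer1a read 43.0 to 62.8 and 7.1 to 36.4 without ligand and 26.1 to 58.6 and 17.8 to 37.3 with it. Markers of endothelium, skeletal muscle, chondrocytes, osteoblasts and neural cells gave no call among those tested. Among epithelial markers Krt18 rose by 0.37, but was not called without rosiglitazone replicate 2 or 3 (adjusted p = 0.057 and 0.0564).

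Of 17 genes tied by the study to Ser273 phosphorylation of PPARγ, recalled from the published work and chosen there on these samples, 13 could be tested. With rosiglitazone 8 of the 13 rose (61.54%, against 3.7% of all genes) and none fell. The median was 0.41, where that of all tested genes was -0.001. Given how the genes were chosen, this is not independent evidence of the direction of the list. Car3, a carbonic anhydrase of fat and muscle, read 134.8, 107.9 and 142.6 against 220.8, 241.0 and 224.9 (0.77, adjusted p = 0.00101), and a second probe set of similar brightness changed by 2.41. Nr1d1, the clock repressor REV-ERBα, read 1801.7, 1761.5 and 2067.1 against 2641.8, 2673.4 and 2586.0 (0.49, adjusted p = 0.000153). Aplp2, a relative of the amyloid precursor, rose by 0.53, with 4 dimmer probe sets at 0.67 to 1.29. Cyp2f2, a cytochrome P450, rose by 0.43, the surface glycoprotein Cd24a by 0.41 and Txnip, the thioredoxin-interacting protein, by 0.41. Peg10 and Acly, described above, were the other members that rose. Rarres2, Nr3c1 and Nr1d2 differed by 0.25, 0.15 and -0.22 and were not called.

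The largest fall was that of Cxcl5, a neutrophil chemokine, which read 542.3, 501.7 and 500.6 without ligand and 290.0, 229.6 and 276.2 with rosiglitazone. The log2 change was -0.92 (SE 0.10, adjusted p = 1.23e-05), and the groups did not overlap, which the rule for naming the largest falls required. In the list of chemokines, cytokines and acute phase genes 9 of 34 tested members fell and 1 rose, against 4.17% and 3.7% of all genes, and the list's median was -0.06. Leaving out any 1 array gave 8 or 9 lower. Il33, an alarmin of stromal cells, read 7667.8, 8398.0 and 7495.3 against 5466.6, 5231.9 and 5350.1 (-0.55, SE 0.04, adjusted p = 7.36e-07). Lcn2, the iron-siderophore carrier lipocalin 2, read 6270.6, 7080.9 and 6347.9 against 4300.1, 4460.8 and 4751.9 (-0.54, adjusted p = 3.06e-06). In Il33 and Lcn2 too all treated arrays lay below all untreated ones by selection, since the largest falls were named only without overlap. The acute phase genes Saa3 and Cp (ceruloplasmin) fell by 0.37 and 0.42 (adjusted p = 3.71e-06 and 0.000101). The monocyte chemokine Ccl2 fell by 0.34 (adjusted p = 3.98e-05), the NF-κB cofactor Nfkbiz by 0.31 (adjusted p = 0.00188) and Cxcl12 by 0.16 (adjusted p = 0.0105). A dimmer probe set of Nfkbiz changed by -0.15 and was not called. Steap4, a metalloreductase, fell by 0.43, but was not called without untreated replicate 1 or 2 or any one rosiglitazone array. Other members were near 0 and not called, among them Il6 (-0.04), Cxcl1 (0.01), Cxcl2 (-0.02), Cxcl10 (0.06) and the NF-κB inhibitor Nfkbia (0.02). Tslp, a cytokine of epithelial and stromal cells outside the list, fell from 296.3, 345.7 and 308.5 to 176.3, 203.8 and 227.4 (-0.61, adjusted p = 0.00266). Among 36 interferon response genes 2 fell (5.56%) and 1 rose (2.78%), near the 4.17% and 3.7% of all genes. Bst2 (tetherin), an interferon-induced antiviral protein, fell by 0.48 (adjusted p = 0.0011), and the interferon-induced Ifit1, Irf7 and Oasl2 differed by -0.16, -0.04 and -0.27 and were not called.

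Further large falls lay outside that list. Sncg, gamma-synuclein, read 174.0, 253.8 and 172.5 against 103.9, 100.1 and 92.2 (-0.89, adjusted p = 0.00215). Crabp1, a cytosolic carrier of retinoic acid, read 896.2, 1061.1 and 914.5 against 553.7, 602.7 and 650.7 (-0.65, adjusted p = 3.42e-05). Nppb, the precursor of brain natriuretic peptide, read 4067.0, 4797.7 and 4099.7 against 2867.1, 2926.7 and 2842.2 (-0.58, adjusted p = 1.92e-05). In all 3 genes untreated replicate 2 was the highest array, and without it the changes were -0.72, -0.58 and -0.50. Their calls held without that array by selection, since the genes were named only if they did. Ptk7, a receptor-like pseudokinase, and the growth factor Fgf18 each fell by 0.62, and the AMP deaminase Ampd3 by 0.54. Ptpn22, a phosphatase of immune cells, fell by 0.53. Prxl2a fell by 0.53, not so when its probe sets were averaged, and Tasp1 by 0.60, a call lost without 4 of the 12 arrays (adjusted p up to 0.102).

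Genes of the extracellular matrix moved both ways, 9 of 64 tested members higher (14.06%) and 6 lower (9.38%), against 3.7% and 4.17% of all genes. The median was 0.01. Of the 9 that rose 7 were collagen chains. Col15a1 read 1065.6, 1051.5 and 1107.4 against 1423.8, 1459.3 and 1471.9 (0.43, SE 0.06, adjusted p = 0.000264), and Col4a1 read 6363.3, 6072.6 and 6265.6 against 7880.8, 8378.2 and 7747.0 (0.36, adjusted p = 7.13e-05). The collagen VI chains Col6a1, Col6a2 and Col6a3 rose by 0.20, 0.28 and 0.37 (adjusted p = 0.0105, 0.000679 and 0.000288) and Col4a2 by 0.20 (adjusted p = 0.00901). Col18a1 and the collagen chaperone Serpinh1 rose by 0.24 and 0.21, but neither was called without rosiglitazone replicate 2 (adjusted p = 0.102 and 0.0574). Plod1, a lysyl hydroxylase of collagen, rose by 0.18 (adjusted p = 0.0439), a call lost without any one of 11 arrays. Fibrillar collagens were not called, with Col1a1, Col1a2 and Col3a1 at 0.14, -0.05 and -0.13. Among the lower ones, Ogn, a small leucine-rich proteoglycan, read 288.2, 367.7 and 247.4 against 161.7, 179.0 and 175.8 (-0.74, SE 0.12, adjusted p = 0.00108), and its dimmer probe set changed by -0.29. Mfap5, a microfibril protein, read 405.3, 538.8 and 420.7 against 301.9, 281.2 and 308.9 (-0.58, adjusted p = 0.00258), while its second probe set changed by 0.10 and was not called. Mgp, an inhibitor of calcification, fell by 0.39, the proteoglycan Vcan by 0.31, the laminin chain Lama4 by 0.30 and Ltbp2 by 0.20. Vcan and Lama4 lost their calls when probe sets were averaged, as their other probe sets changed by -0.02 to 0.03.

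**Figure D4:**
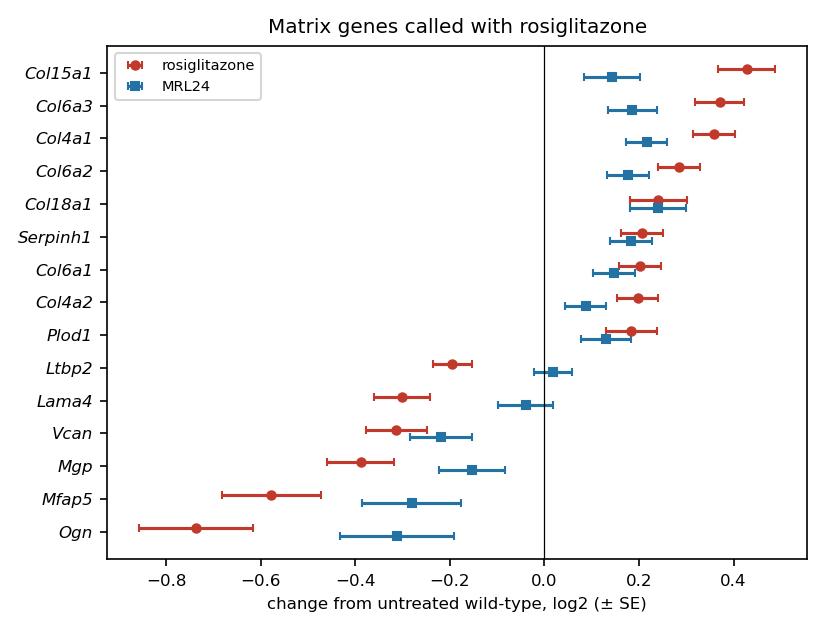
Log2 change from untreated wild-type (x axis, point and SE) of the 15 matrix genes called with rosiglitazone, 3 arrays a group. Circles give rosiglitazone and squares MRL24, both set against the same untreated arrays; the circles run from 0.43 for Col15a1 to -0.74 for Ogn.

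Matrix proteases and their inhibitors gave 2 rises and 5 falls among 23 (8.7% and 21.74%, against 3.7% and 4.17% of all genes). Mmp13, a collagenase, read 1284.8, 1208.3 and 1267.0 against 2006.2, 1911.9 and 1762.6 (0.59, SE 0.06, adjusted p = 5.82e-06). The stromelysins Mmp3 and Mmp10 fell by 0.43 and 0.38 (adjusted p = 0.007 and 0.000171) and the sheddase Adam17 by 0.33 (adjusted p = 0.0061). The cytoskeletal and myofibroblast list gave 3 rises and 2 falls among 35 (8.57% and 5.71%). Of its members, the growth factor Tgfb1 rose by 0.34 (adjusted p = 0.00334), and Tgfbi and Ccn2 fell by 0.31 and 0.30 (adjusted p = 2.39e-05 and 0.00129). Acta2, the smooth muscle actin of myofibroblasts, differed by 0.02 and was not called. Preadipocyte and stromal genes gave 4 rises and 6 falls among 37 (10.81% and 16.22%). Wnt11, a WNT ligand, read 144.4, 141.5 and 116.8 against 219.1, 237.5 and 241.2 (0.73, adjusted p = 0.00244). Inhba, a chain of activin A, rose by 0.39 and the growth factor Fgf2 by 0.67, while Gas1 and Igfbp6, which binds insulin-like growth factors, fell by 0.36 and 0.40. Dimmer probe sets of Gas1 changed by -0.21 and -0.05 and were not called.

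In glucose handling and insulin signalling the share of lower calls was near the 4.17% of all genes. Of 22 genes of glycolysis and glucose uptake, Hk2 alone was called (4.55%), with a fall of -0.24, and not without untreated replicate 1 or rosiglitazone replicate 2 or 3. Slc2a4, the insulin-responsive glucose transporter, differed by 0.28 (adjusted p = 0.234). Of 27 insulin signalling genes, Socs3 alone was called (3.7%), with a fall of -0.24 (adjusted p = 0.014), and not without rosiglitazone replicate 1. Irs1 and Irs2, the receptor substrates, differed by 0.23 and -0.04 and were not called. Sterol synthesis and uptake gave 4 rises and no fall among 16 tested genes, where 3.7% of all genes rose. Leaving out rosiglitazone replicate 1 left 1 call, so the size of this share rests on that array. Of the 4, Msmo1, a sterol oxidase, rose by 0.32 (adjusted p = 0.0014). Targets of the glucocorticoid receptor gave 4 rises and 4 falls among 21 (19.05% each, against 3.7% and 4.17% of all genes). Tsc22d3 and Dusp1 rose by 0.44 and 0.28 (adjusted p = 0.00047 and 0.00058), Sgk1 fell by 0.32 (adjusted p = 0.00108), Tsc22d3 lost its call when probe sets were averaged, and Fkbp5 and Per1 differed by 0.07 and 0.04 and were not called. No gene was called among 37 of the proteasome.

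MRL24, given to the same cells at the same dose and for the same time, allowed a direct test of the difference between ligands, in which the untreated arrays take part only through the shared estimate of spread. Rosiglitazone and MRL24 differed for 229 genes (2.5%), with 129 higher (1.41%) and 100 lower (1.09%) in rosiglitazone. This count moved widely, from 96 without MRL24 replicate 2 to 480 without untreated replicate 2, and was 546 with only these 2 groups in the fit. Against untreated cells MRL24 called 503 genes (5.49%), 293 higher (3.2%) and 210 lower (2.29%), but both comparisons with untreated cells share its 3 arrays, so these counts are given side by side only.

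Cd36 read 405.4, 406.0 and 421.7 with MRL24, between the untreated and the rosiglitazone arrays and apart from both. Rosiglitazone lay above MRL24 by 1.75 on the log2 scale (SE 0.08, adjusted p = 2.73e-09). Acaa1b, Peg10, Angptl4, Kank3, Tmem158 and Fabp4 showed the same order, with rosiglitazone above MRL24 by 1.63, 1.01, 0.95, 0.94, 0.75 and 0.71, and MRL24 above untreated by 0.68, 0.57, 0.47, 0.68, 0.46 and 0.69, all called. In other genes MRL24 was not called against untreated cells. Cited1 read 360.1, 384.1 and 393.2 with MRL24, a difference of 1.30 from rosiglitazone (SE 0.11, adjusted p = 5.57e-06) and of -0.13 from untreated cells (adjusted p = 0.508). Serpinb2, a serine protease inhibitor, read 957.6, 1088.9 and 909.0 without ligand, 1545.0, 1732.1 and 1629.8 with rosiglitazone and 889.9, 861.0 and 926.0 with MRL24. It was 0.86 higher with rosiglitazone than with MRL24 (adjusted p = 5.57e-06), and the MRL24 arrays overlapped the untreated ones. Tpsab1 differed between ligands by 1.05 and Pdk4 by 0.72 (adjusted p = 5.57e-06 and 7.12e-06). Rpl3l, a ribosomal protein paralog of muscle, was lower with rosiglitazone, at a difference of -1.18 (adjusted p = 0.0372), but was not called without any one of 5 of the 6 arrays of the pair of groups.

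By list, all 5 lipid carrier genes that rose were also higher with rosiglitazone than with MRL24, Lpl by 0.58 and Fabp5 by 0.47. In mitochondrial fatty acid oxidation 9 of 26 genes were higher in rosiglitazone than in MRL24 and none lower, against 1.41% and 1.09% of all genes, with a median difference of 0.13 where that of all genes was -0.02. Without MRL24 replicate 2 the 9 became 3, while the median lay between 0.12 and 0.16 with any 1 array left out. Hadhb differed by 0.44 (adjusted p = 0.000222), Acaa2 by 0.32 and Acadvl by 0.28 (adjusted p = 0.00628 and 0.00542), and the carnitine carrier Slc25a20, not called against untreated cells, by 0.30 (adjusted p = 0.011). Plin2 and Lipa differed by 0.49 and 0.40. Of the cytokine list 5 genes were lower with rosiglitazone than with MRL24 and 1 higher, and Cxcl5, Il33, Lcn2 and Saa3 differed by -0.58, -0.38, -0.37 and -0.22. Some responses did not differ beyond the spread. Mmp13 differed between ligands by 0.03 (SE 0.06, adjusted p = 0.862), Tgfb1 by 0.03 (SE 0.06), Txnip by 0.06 (SE 0.04) and Nr1d1 by 0.11 (SE 0.06, adjusted p = 0.454).

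For the respiratory chain genes the values of both ligands are set side by side. Against the shared untreated arrays their median was -0.02 with rosiglitazone and -0.14 with MRL24, with 4 higher and none lower for rosiglitazone and none higher and 13 lower for MRL24. In the direct test 78 of 84 genes (92.9%) were above 0, where 4046 of all 9154 were (44.2%), with a median difference of 0.12 (0.10 to 0.14 with any 1 array left out), while 4 were called, Cycs by 0.61, Atp5g1 of the ATP synthase by 0.33, the complex I subunit Ndufb8 by 0.24 and the complex III subunit Uqcrb by 0.22. That count was 1 without MRL24 replicate 2 and 30 without untreated replicate 2. The 13 lower calls of MRL24 became 2 without untreated replicate 2, with a median of -0.08, and lay between 0 and 25 with any 1 array left out. Without that array the rosiglitazone median turned to 0.05. Mitochondrial ribosome genes had medians of -0.04 with rosiglitazone and -0.15 with MRL24, which became 0.02 and -0.09 without untreated replicate 2. Between the ligands their median was 0.10, with 62 of 74 above 0 and 1 called.

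**Figure D5:**
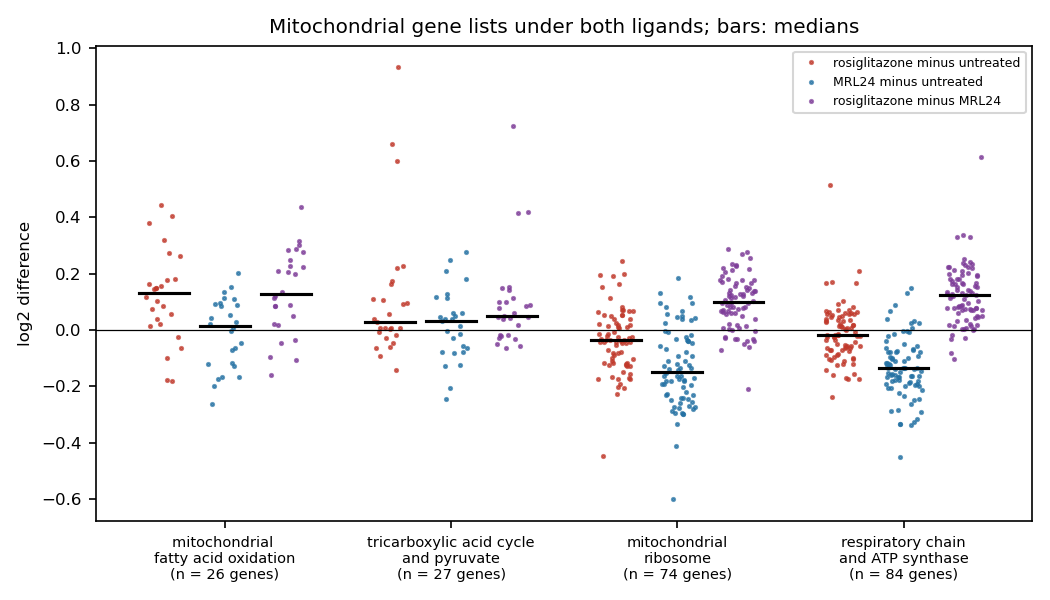
Log2 differences (y axis) of the genes in 4 mitochondrial lists, with rosiglitazone against untreated in red, MRL24 against untreated in blue and rosiglitazone against MRL24 in purple; each point is a gene and each black bar a list median. For the respiratory chain and ATP synthase the bar of the purple points is at 0.12 and that of the blue points at -0.14.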

How the data were processed

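Total RNA of 12 samples was biotin-labelled and measured on Affymetrix arrays, per the labels. The authors deposited intensity values on a linear scale in 1 table; the normalization method and build are not given in the sources used here. Of 22690 probe sets, 20380 carried 1 gene symbol, and each of 12393 genes was its brightest probe set. Genes under the 30th percentile of mean intensity (98.7) were left out, leaving 9154. From the deposited intensity log2(value + 16) was computed. All 12 arrays entered 1 limma fit (3.58.1, R 4.3.3; lmFit, eBayes with trend; 8 residual degrees of freedom), with Benjamini-Hochberg adjustment over 9154 genes. Tables used python 3.11.15 and pandas 2.3.3. Tested on simulated data, rosiglitazone against untreated among 9154 genes, the fit recovered 16, 42, 50 and 50 of 50 genes changed by 0.25, 0.5, 1 and 2 log2 units, with 12 false calls. The simulated noise was independent and normal, with the same spread of a gene on every array. An array that stands apart, as untreated replicate 2 did, was not simulated, so these figures need not hold for the data.

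The members and the 35 lists were chosen with earlier results of these data known. Named are the 15 largest rises and falls that were called, did not overlap and kept the call without untreated replicate 2, PPARγ and its partners, called members of the lists described, cell type markers and the 10 largest differences between ligands. Fewer are described than this rule allows, and the uncalled members shown were picked after values were seen. Promoter windows are from RefSeq.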

Additional observations from a re-analysis of the deposited data

How the results depend on the processing

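Alternatives were another pseudocount, filter, scaling, probe set rule, sample set, array weights, no trend, a replicate block and leaving out each of the 12 arrays. The 721 calls against untreated cells (339 higher, 382 lower) became 355 (178 and 177) in a fit to these 2 groups alone, and with 1 array left out lay between 383 and 762 (191 to 384 higher, 192 to 397 lower). The 229 calls against MRL24 became 546 in a fit to these 2 groups alone, 637 with array weights and 132 without the trend, and lay between 96 and 480 with 1 array left out. With the replicate number as a block 608 genes were called against untreated cells and 174 against MRL24. Same-numbered arrays had correlated deviations of r from -0.114 to 0.121, and different-numbered arrays of -0.13 to 0.155. With so few arrays a group these values cannot tell if the numbers pair the samples. Of 172 calls for single genes in the comparisons, 101 held in every alternative and 120 whenever 1 array was left out. With all probe sets averaged the changes of Fdps and Timp3 turned to -0.055 and 0.003. Other alternatives kept the counts within 1.5 times. Dim genes below the filter, such as Adipoq and Cidec, have the least certain changes.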

Other observations

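Genes outside the lists also moved, and those given here were picked after their values were seen from the next largest changes that kept their call whichever 1 array was left out. Pde1b, a cyclic nucleotide phosphodiesterase, read 1497.7, 1431.8 and 1484.0 without ligand and 2616.7, 2600.4 and 2593.7 with rosiglitazone (log2 change 0.82, SE 0.05, adjusted p = 1.75e-08). The arrays of each group stood close together and the groups far apart. Fgfrl1, a decoy-like relative of the fibroblast growth factor receptors, read 1814.0, 1647.0 and 1812.1 against 2842.4, 2857.9 and 2703.2 (0.67, adjusted p = 2.44e-06). The kinase Pim3 rose by 0.58 (adjusted p = 1.26e-05), with its other probe sets at 0.11 and 0.60, and the semaphorins Sema5a and Sema3c rose by 0.68 and 0.61. Among falls, Rgs5, a regulator of G protein signalling found in pericytes, read 6813.2, 7091.0 and 6495.0 against 4915.8, 4776.9 and 4798.7 (-0.49, SE 0.04, adjusted p = 7.38e-07). Its relative Rgs4 fell by 0.49 as well (adjusted p = 0.000603). The water channel Aqp1 fell by 0.48, xanthine dehydrogenase (Xdh) by 0.50, the neurotrophin Bdnf by 0.50, Bmp6 by 0.51 and ephrin-B2 (Efnb2) by 0.50. The 3 dimmer probe sets of Efnb2 changed by -0.45, -0.10 and -0.02 and were not called.

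Some large differences were not called because arrays of a group differed. B3gat1, a glucuronosyltransferase, read 273.7, 1.0 and 172.7 without ligand and 1154.2, 1603.4 and 183.9 with rosiglitazone (2.89, SE 0.98, adjusted p = 0.0832), and 1221.0, 1782.6 and 2232.4 with MRL24. Syk, a tyrosine kinase of immune cells, read 272.2, 569.5 and 297.8 against 124.7, 123.0 and 202.7 (-1.21, adjusted p = 0.0767). Tbc1d14 read 2560.1 on rosiglitazone replicate 3 and 385.5 and 412.6 on the other arrays of that group.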
